A study of Rattus norvegicus with 4 samples.

Results

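Chemokines, interleukins and their receptors were examined in the maturing rat retina. Members were the probes whose platform symbol began with Ccl, Ccr, Cxcl, Cxcr, Cx3c or Il followed by a digit, or equalled Ccrl2. The rule found 95 probes for 89 genes, of 12750 probes with 1 symbol for 9653 genes in all. The members were 27 chemokine ligands, 13 chemokine receptors, 23 interleukins, 24 interleukin receptor chains and 2 soluble blockers, Il1rn and Il18bp. A single probe reported 83 of them, and 6 had 2 probes, which were averaged. All 89 gene identifiers were found in the RefSeq gene table of GRCr8, and 0 symbols changed. Whole retinas of albino Lewis rats were pooled at 5, 11 and 20 weeks of age, and no group carried a mutation or a treatment per the labels. Each older age was hybridised with the 5-week retina on 2 two-colour arrays with exchanged dyes, 4 arrays in all. The 5-week retina was thus the reference of both comparisons.

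Chemokines are small secreted proteins that draw leukocytes along a gradient, and they act through receptors that cross the membrane and couple to G proteins. Interleukins signal through paired receptor chains, mostly towards the JAK-STAT or NF-kB pathways, and decoy chains, antagonists and binding proteins limit them. In the healthy retina the main immune cells are microglia, and neurons, Müller glia and vessels can make some chemokines, among them the fractalkine (Cx3cl1) that microglia sense through Cx3cr1. Ccl2 and interleukin 1 are known from retinal injury and ageing.

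Each value is a log2 ratio of the older over the 5-week retina on 1 array, relative to the median named probe of that array, so 0 is the middle gene and 1 is a doubling. Arrays are called by the dye of the older retina. A ratio was read as Cy5 over Cy3, likely from the order of ages in the titles, and with the opposite direction every "higher" would read "lower". The array medians before this centring were taken on the ratios as deposited, not yet turned to the older age. They were -0.045 and -0.13 on the 11-week Cy5 and Cy3 arrays, and 0.543 and -0.01 on the 20-week Cy5 and Cy3 arrays. The arrays of a pair did not covary positively across the members after both were turned to the older age: Pearson's r across genes was -0.391 at 11 weeks and -0.006 at 20 weeks (89 genes), against -0.300 and 0.166 over all 9653 genes. Genes are not independent replicates, and these r values describe the arrays. The test came from limma with an 11-week change, a 20-week change and a gene-wise dye effect fitted over the 4 arrays, called at a Benjamini-Hochberg adjusted p under 0.05 over all genes. Nothing in the labels says whether a dye-swapped pair used separate RNA. A p-value here covers only array-to-array spread, possibly technical, and with 1 extract per age behind a pair there would be no test at all. Pooled tissue also cannot tell fewer cells of a type from less RNA per cell. Spot intensities were not used here, so a ratio says nothing about whether a transcript was abundant or above background.

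At 20 weeks 34 of the 89 members were called higher than at 5 weeks, 38.2%, beside 17.8% of all genes, and 3 were called lower, 3.37%, beside 13.9% of all genes. The interleukins had the highest share, with 15 of 23 called higher, 65.2%. The other roles had 8 of 27 chemokine ligands, 4 of 13 chemokine receptors and 7 of 24 interleukin receptor chains called higher. The called changes were small: they ran from 0.191 to 1.59 with a median of 0.311, and 25 of the 34 were under 0.4. Both 20-week arrays lay above 0 for 28 of the 34 members, 31.5% of the members beside 14.4% of all genes, and on opposite sides for 6. Of the 3 called lower, 1 had both arrays below 0, beside 12.6% of all genes. At 11 weeks 3 members were called higher, 3.37% beside 2.61% of all genes, and 1 lower, 1.12% beside 6.34%.

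These counts rest on the dye term. In limma without it, 0 of the 9653 genes passed in any comparison, and the smallest adjusted p was 0.999 at 11 weeks and 0.182 at 20 weeks. At an unadjusted p under 0.05 that model held 367 genes and 3 members at 11 weeks, and 888 genes and 12 members at 20 weeks. With 1 array left out as well, 0 or 1 members passed at 20 weeks, the 1 being Ccl2 when an 11-week array was left out, and 0 passed at 11 weeks. With the ratios as deposited, without centring, the dye model called 6 members higher and 0 lower at 20 weeks. The share of all genes called with that setting is not given here, so the 6 cannot be set against it. Uncentred ratios put the median gene itself at 0.289 at 20 weeks. Centred on the median of all probes, the 20-week calls of Ccl5, Cxcl6, Cxcr5, Il10rb, Il17b, Il18 and Il5 were lost, at adjusted p between 0.0543 and 0.0758. With arrays set to equal spread 10 were lost, those of Ccl5, Ccrl2, Cxcl10, Cxcl6, Il10rb, Il18, Il3ra, Il4r, Il5 and Il9r, at adjusted p between 0.0526 and 0.112. Robust variance moderation ended those of Ccrl2 and Il2, at 0.0774 and 0.104. None of these 3 settings ended an 11-week call.

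Calls towards higher values were also common at 20 weeks in gene families with no known place in the retina. They were gathered by symbol after the values were seen. The families were olfactory, vomeronasal and taste receptors, caseins, pancreatic enzymes, placental prolactins, defensins, Reg and seminal vesicle proteins, the odorant-binding Obp1f and Pate7. Single genes taken in by symbol, such as the uncalled Olr1, may not belong to the family named. Of the 56 genes 21 were called higher, 37.5%, and 3 lower. Their median change was 0.13, beside 0.159 for the members and 0.013 for all genes. The bitter taste receptor Tas2r107, the highest of the 56 at 20 weeks, was at 0.69 and 1.18 on the Cy5 and Cy3 arrays. By role the median 20-week change was 0.159 in chemokine ligands, 0.091 in chemokine receptors, 0.284 in interleukins and 0.096 in interleukin receptor chains. The medians at 11 weeks were 0.044, 0.136, 0.054 and 0.05 in the same order, beside 0.018 for all genes. The part of weak or nonspecific spots in the members' share was not tested.

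**Figure D1:**
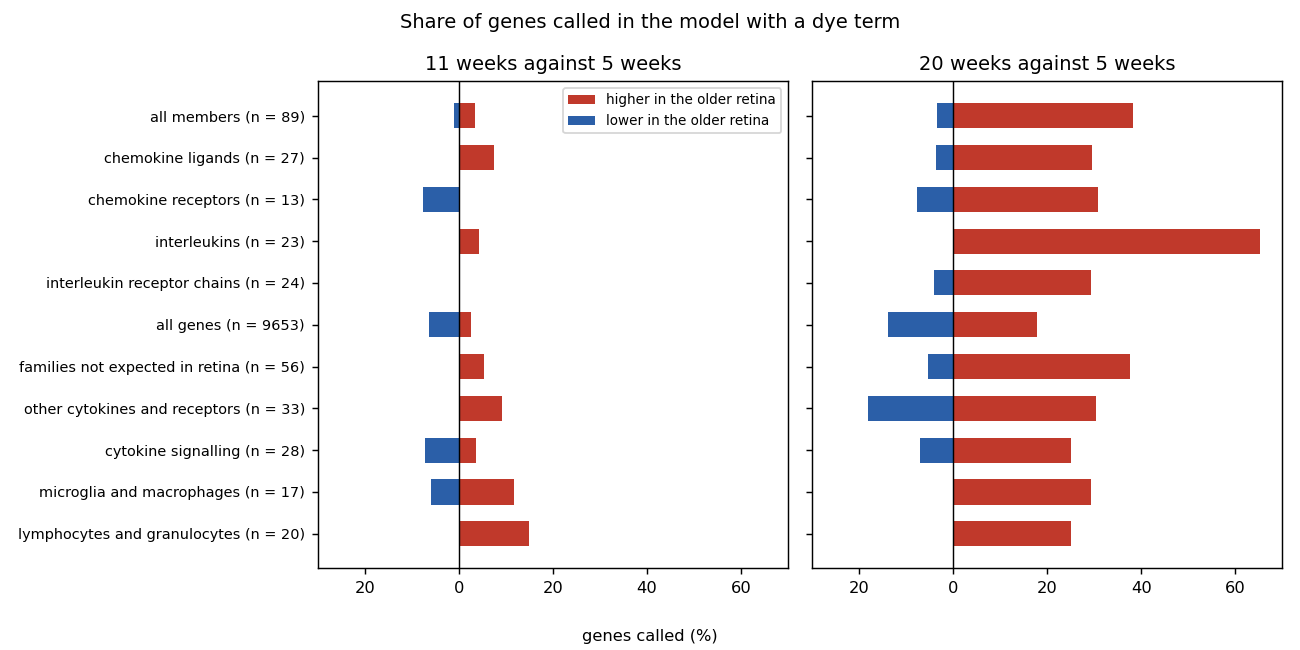
Share of genes called higher (to the right, percent) and called lower (to the left) by limma with a dye term, at 11 weeks and at 20 weeks against 5 weeks, for the members by role, all genes and other gene lists; n is the number of measured genes. Interleukins reach 65.2% at 20 weeks, and families not expected in retina, at 37.5%, lie beside the 38.2% of all members.

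Among the chemokine ligands Ccl2 changed most. Ccl2, which attracts monocytes through Ccr2, stood at 0.86 and 0.79 on the 11-week Cy5 and Cy3 arrays, and at 1.70 and 1.48 on the 20-week arrays. All 4 arrays were far above 0, both 20-week arrays lay above both 11-week arrays, and the dye made little difference. The mean was 0.83 ± 0.05 at 11 weeks (SD, n = 2 arrays; 1.77-fold, adjusted p = 0.000434) and 1.59 ± 0.16 at 20 weeks (SD, n = 2 arrays; 3.005-fold, adjusted p = 1.29e-06). The dye effect of Ccl2 was 0.07, and its change was the only member's of at least 1 at 20 weeks. The value without any 1 array stayed between 0.75 and 0.90 at 11 weeks and between 1.48 and 1.70 at 20 weeks, yet without the dye term its adjusted p was 0.999 and 0.182.

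Ccl6, a CC chemokine found in rodents and made by macrophages, differed between ages. It stood at -0.12 and -0.24 on the 11-week Cy5 and Cy3 arrays, and at 1.20 and 0.65 on the 20-week arrays. The 20-week arrays lay well above both 11-week arrays, which were slightly below 0. The 20-week mean was 0.93 ± 0.39 (SD, n = 2 arrays; 1.90-fold, adjusted p = 8.97e-05). Cxcl16, a membrane-bound ligand that also acts as a scavenger receptor, stood at 0.12 and -0.24 at 11 weeks and at 0.53 and 0.36 at 20 weeks. Its 20-week arrays too lay above both 11-week arrays, with a mean of 0.44 ± 0.12 (SD, n = 2 arrays; adjusted p = 0.00162).

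Smaller calls were made for Ccl5 and Cxcl6. Ccl5 (RANTES), which attracts T cells and monocytes, stood at 0.18 and 0.00 on the 11-week arrays and at 0.32 and 0.07 on the 20-week arrays (20-week adjusted p = 0.046). Cxcl6, a neutrophil attractant in the group with Cxcl1, stood at 0.03 and 0.05 at 11 weeks and at 0.18 and 0.22 at 20 weeks (adjusted p = 0.0441). Both genes were above 0 on all 4 arrays, by little on most of them. Cxcl12 (SDF-1), which guides precursor cells and neurons through Cxcr4, was below 0 on all 4 arrays, at -0.54, -0.01, -0.33 and -0.20 with the 11-week arrays first and Cy5 before Cy3. Its 20-week mean was -0.26 ± 0.09 (SD, n = 2 arrays; 1.20-fold lower, adjusted p = 0.0312). Fitted without the 20-week Cy3 array the change was -0.06, and without the 20-week Cy5 array it was -0.47, so the size rested on which array was kept. As deposited it was 0.01, so the direction is relative to the median gene.

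A group of ligands called higher at 20 weeks had their arrays on opposite sides of 0, in the order of the dyes. Cxcl1 (the rat counterpart of GRO, a neutrophil attractant) stood at 0.83 and -0.57 on the 11-week Cy5 and Cy3 arrays and at 0.95 and -0.34 on the 20-week arrays. Cxcl10, an interferon-induced attractant of T cells, stood at 0.76 and -0.45 at 11 weeks and at 0.83 and -0.33 at 20 weeks. Both were high wherever the older retina carried Cy5 and low wherever it carried Cy3, so their means of 0.31 ± 0.92 and 0.25 ± 0.82 at 20 weeks (SD, n = 2 arrays) lay within the spread of the arrays. Ccl19, a ligand of Ccr7, behaved likewise, at 0.69 and -0.09 at 20 weeks, with 0.20 left of its change of 0.30 without the 20-week Cy5 array. Cxcl11, a further ligand of Cxcr3, was called at 11 weeks alone, at 0.32 and 0.52 on the 11-week arrays (adjusted p = 0.0134) and at -0.13 and 0.47 on the 20-week arrays. Without the 11-week Cy5 array its 11-week change was 0.22.

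The remaining ligands gave no call. Cx3cl1, the fractalkine of neurons, stood at 0.20 and -0.20 at 11 weeks and at 0.27 and -0.24 at 20 weeks, so its sign followed the dye. Ccl3, a macrophage chemokine, stood at -0.11 and 0.35 at 11 weeks and at -0.08 and 0.31 at 20 weeks, with the opposite dye order. Ccl22 was above 0 on all 4 arrays, with a 20-week mean of 0.16 ± 0.02 (SD, n = 2 arrays; adjusted p = 0.0895). Ccl11 (eotaxin) had 0.16 ± 0.19 (SD, n = 2 arrays) and Ccl24, a further eotaxin, -0.18 ± 0.13 (SD, n = 2 arrays; adjusted p = 0.0646) at 20 weeks. The 20-week Cy5 value of Cxcl3 was missing, so its fit used 3 arrays with no residual degree of freedom of its own. Ccl4 had no probe with a single symbol. Over all ligands the fitted change ran from -0.272 to 0.826 at 11 weeks and from -0.265 to 1.59 at 20 weeks.

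**Figure D2:**
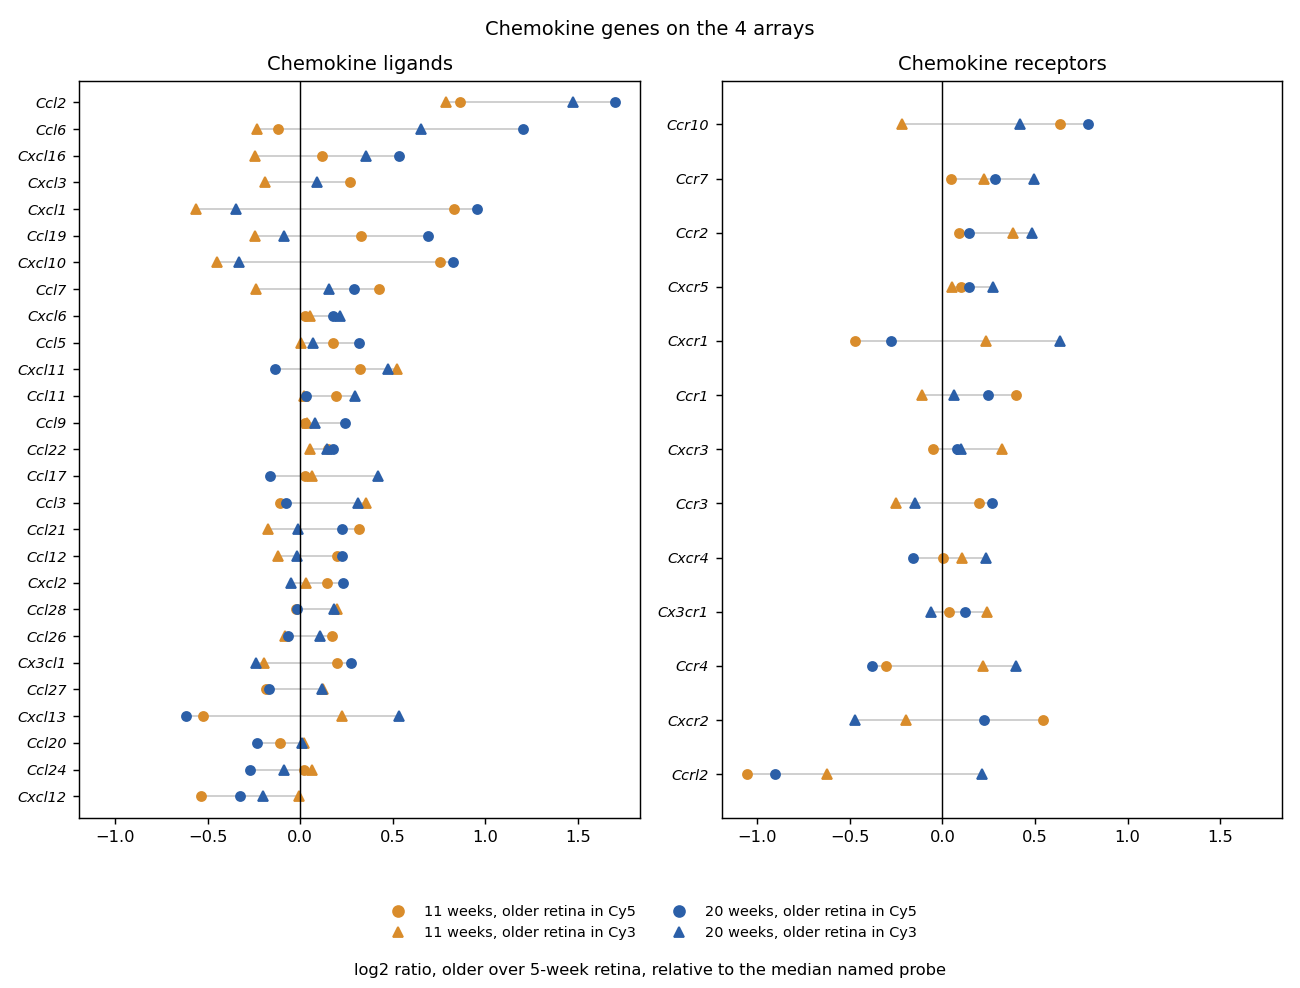
Log2 ratio of the older over the 5-week retina on each of the 4 arrays (colour for age, circles for the older retina in Cy5, triangles for Cy3) for each chemokine ligand and receptor, ordered by the 20-week change. Ccl2 lies to the right on all 4 arrays, whereas circles and triangles of Cxcl1 and Cxcl10 fall on opposite sides of 0.

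Many ligand genes lie side by side, and their values differed. In the GRCr8 gene table Ccl2, Ccl7, Ccl11, Ccl12 and Ccl1 follow each other on chromosome 10, with 4 of the 5 measured. The means at 20 weeks were 1.59 for Ccl2, 0.22 for Ccl7, 0.16 for Ccl11 and 0.10 for Ccl12. Ccl7 (MCP-3), which shares the receptor Ccr2 with Ccl2, stood at 0.43 and -0.24 at 11 weeks and at 0.29 and 0.16 at 20 weeks (adjusted p = 0.0805), so all 4 of its arrays were below those of Ccl2. A second run on the same chromosome holds Ccl5, Ccl9, Ccl6, Ccl3 and Ccl4, again with 4 of the 5 measured. Their 20-week means were 0.20, 0.16, 0.93 and 0.12 for Ccl5, Ccl9, Ccl6 and Ccl3. That of Ccl9 averages probes at 0.59 and -0.27. On chromosome 3 the interleukin genes Il1a and Il1b are adjacent, and both were called higher at 20 weeks. On chromosome 14 Cxcl2 had 0.23 and -0.05 at 20 weeks beside the dye-ordered values of its neighbour Cxcl1. Differences between these neighbours were not tested.

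**Figure D3:**
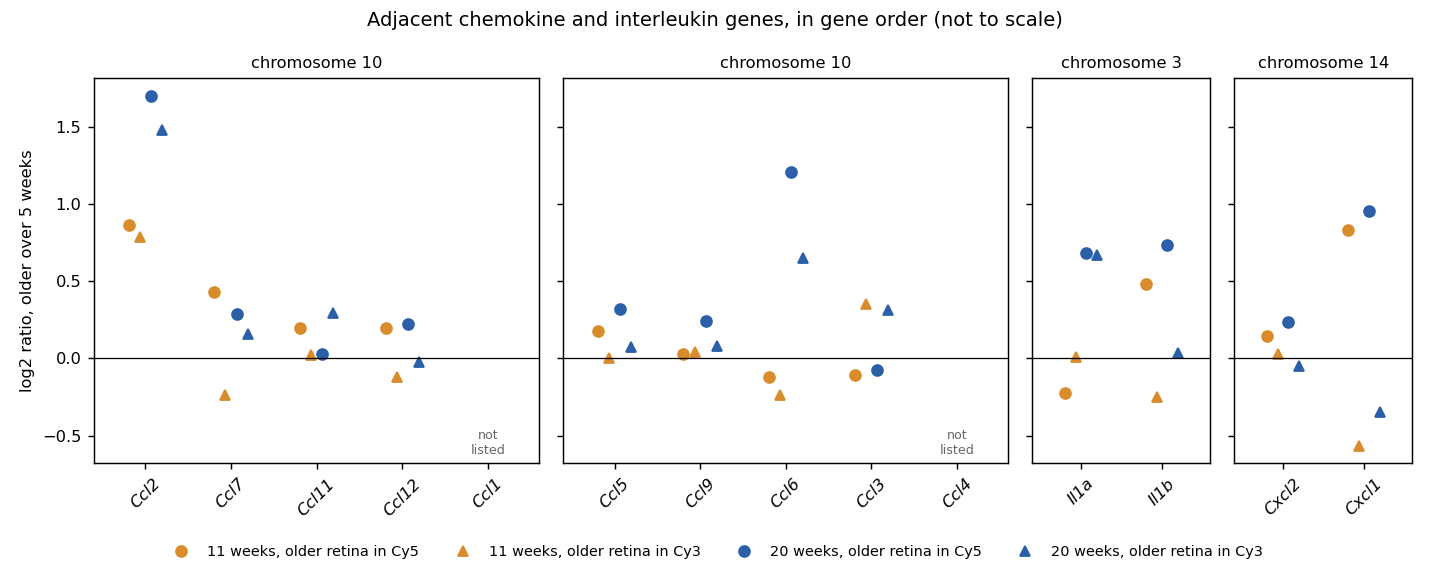
Log2 ratio on each of the 4 arrays for adjacent chemokine and interleukin genes, in their order in the GRCr8 gene table (spacing not to scale). Ccl2 (1.70 and 1.48 at 20 weeks) and Ccl6 (1.20 and 0.65) stand above their neighbours, and Ccl1 and Ccl4 had no probe with that single symbol. Ccl9 is drawn as the average of probes that went opposite ways at 20 weeks.

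The start regions of 5 members are shown: the called genes Ccl6, Cxcl6, Il1a and Il6 and, for contrast, the uncalled neighbour Ccl7 of Ccl2. All 5 hold a motif marked below, and they do not stand for the called members. Windows of other called members, among them Ccr2, Cxcl12, Cxcl16, Il17b, Il33, Il36b and Il7r, held none of these motifs. The RefSeq table of GRCr8 starts held 300 bases (250 before and 50 after the start) for 69 of the 89 members. Capitals mark a TATAAA box, the AP-1 motif TGANTCA or the NF-kB consensus, searched on both strands, and each sequence reads 5′ to 3′ on the strand of the gene.
Ccl6, GRCr8 chr10:68883317-68883616, minus strand: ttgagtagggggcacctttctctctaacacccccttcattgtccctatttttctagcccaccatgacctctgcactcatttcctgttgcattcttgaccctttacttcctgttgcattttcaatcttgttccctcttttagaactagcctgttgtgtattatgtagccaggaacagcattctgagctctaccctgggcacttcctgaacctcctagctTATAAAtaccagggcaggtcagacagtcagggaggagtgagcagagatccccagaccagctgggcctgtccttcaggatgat
Ccl7, GRCr8 chr10:67513845-67514144, plus strand: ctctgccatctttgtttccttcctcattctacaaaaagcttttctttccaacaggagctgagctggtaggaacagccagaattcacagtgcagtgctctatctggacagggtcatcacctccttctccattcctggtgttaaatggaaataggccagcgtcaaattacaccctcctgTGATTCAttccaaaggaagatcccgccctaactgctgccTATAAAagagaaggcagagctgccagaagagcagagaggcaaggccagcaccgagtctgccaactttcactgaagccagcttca
Cxcl6, GRCr8 chr14:17596368-17596667, minus strand: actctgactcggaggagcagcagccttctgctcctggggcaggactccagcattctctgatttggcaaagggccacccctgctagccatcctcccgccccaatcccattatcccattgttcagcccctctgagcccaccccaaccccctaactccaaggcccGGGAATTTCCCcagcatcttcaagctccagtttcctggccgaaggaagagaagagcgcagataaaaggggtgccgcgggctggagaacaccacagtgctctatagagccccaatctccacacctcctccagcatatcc
Il1a, GRCr8 chr3:136989968-136990267, minus strand: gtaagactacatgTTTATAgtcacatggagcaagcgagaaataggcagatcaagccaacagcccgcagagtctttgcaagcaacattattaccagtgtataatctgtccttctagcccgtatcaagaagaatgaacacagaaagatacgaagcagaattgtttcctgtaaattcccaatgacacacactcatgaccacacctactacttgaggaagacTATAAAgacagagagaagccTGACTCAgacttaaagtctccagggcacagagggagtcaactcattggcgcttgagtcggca
Il6, GRCr8 chr4:5894526-5894825, minus strand: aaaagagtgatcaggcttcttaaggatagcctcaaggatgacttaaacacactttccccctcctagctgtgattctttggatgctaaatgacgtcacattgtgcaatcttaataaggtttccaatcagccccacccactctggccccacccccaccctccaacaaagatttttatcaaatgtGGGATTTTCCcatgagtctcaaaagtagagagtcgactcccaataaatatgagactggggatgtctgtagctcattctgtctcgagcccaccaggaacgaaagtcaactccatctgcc
Ccl6 has a TATAAA 32 bases before the start. Ccl7 has one at 34 bases and the AP-1 motif at 73 bases. In Cxcl6 the capitals are a pair of overlapping NF-kB matches, at 88 and 87 bases. Il1a has TATAAA at 32 bases, a further one on the other strand at 237 bases, and the AP-1 motif at 12 bases, and Il6 has the NF-kB consensus at 68 bases. The NF-kB consensus occurred in 14 of the 69 members' windows, 20.3%, beside 4.18% of 33469 windows of the same length. By role it occurred in 7 of 22 ligands, 1 of 9 chemokine receptors, 1 of 18 interleukins and 5 of 18 interleukin receptor chains. TATAAA occurred in 24.6% of the members beside 14.2% of all windows, and TGANTCA in 14.5% beside 7.33%. A match describes letters in this window and not a site in use.

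Of the 13 chemokine receptors, 4 were called higher at 20 weeks and 1 lower. Ccr10, a receptor of skin-homing lymphocytes for Ccl27 and Ccl28, had the largest change. It stood at 0.63 and -0.22 on the 11-week Cy5 and Cy3 arrays and at 0.79 and 0.42 on the 20-week arrays. Both 20-week arrays were above 0, but the 11-week Cy5 array was higher than the 20-week Cy3 array. The 20-week mean was 0.60 ± 0.26 (SD, n = 2 arrays; 1.52-fold, adjusted p = 0.00101), and the fit without the 20-week Cy3 array gave 0.36. Its ligand Ccl28 was at 0.08 ± 0.14 and Ccl27 at -0.03 ± 0.20 (SD, n = 2 arrays), and neither was called.

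Ccr7, which brings dendritic cells and T cells to lymph nodes, stood at 0.05 and 0.23 at 11 weeks and at 0.28 and 0.49 at 20 weeks. All arrays were above 0, and the 20-week arrays lay above the 11-week arrays (mean 0.39 ± 0.15, SD, n = 2 arrays; adjusted p = 0.00239). Ccr2, the monocyte receptor for Ccl2 and Ccl7, stood at 0.09 and 0.38 at 11 weeks and at 0.15 and 0.49 at 20 weeks. It was above 0 on all 4 arrays, yet the ages overlapped, and the 20-week mean was 0.32 ± 0.24 (SD, n = 2 arrays; 1.24-fold, adjusted p = 0.00643) beside 1.59 for Ccl2. Cxcr5, the B-cell receptor for Cxcl13, stood at 0.15 and 0.27 at 20 weeks (adjusted p = 0.0404), and without the 20-week Cy3 array its change was 0.12. Cxcl13 itself followed the dye, at -0.62 and 0.53.

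Ccrl2, a chemokine-binding receptor without the usual signalling that presents chemerin, was the one member called lower at 11 weeks. It stood at -1.06 and -0.62 at 11 weeks and at -0.91 and 0.21 at 20 weeks. Both 11-week arrays were far below 0, whereas the 20-week arrays fell on opposite sides. The mean was -0.84 ± 0.31 at 11 weeks (SD, n = 2 arrays; 1.79-fold lower, adjusted p = 0.00244) and -0.35 ± 0.79 at 20 weeks (SD, n = 2 arrays; adjusted p = 0.0273). Without the 11-week Cy3 array the 11-week change was -0.50, and the 20-week change was -0.004 without the 20-week Cy5 array and -0.69 without the Cy3 array. The microglial receptor Cx3cr1 was at 0.14 ± 0.14 and 0.03 ± 0.13 at 11 and 20 weeks, and Cxcr4, the partner of Cxcl12, at 0.06 ± 0.07 and 0.04 ± 0.28 (SD, n = 2 arrays), with no call. Cxcr1, Cxcr2, Ccr3 and Ccr4 had signs that followed the dye on all 4 arrays.

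Among the interleukins the family of interleukin 1, which activates NF-kB through receptors of the Il1r1 type, is described together. This grouping was made after the values were seen. Il1a, the alarm cytokine released by damaged cells, stood at -0.22 and 0.01 at 11 weeks and at 0.68 and 0.67 at 20 weeks. The 20-week arrays were alike in both dyes and above the 11-week arrays (mean 0.67 ± 0.01, SD, n = 2 arrays; 1.60-fold, adjusted p = 0.000208). Il1b, the secreted form processed by caspase 1, stood at 0.48 and -0.25 at 11 weeks and at 0.73 and 0.04 at 20 weeks, so each Cy5 array was above its Cy3 partner and the ages overlapped (20-week mean 0.39 ± 0.49, SD, n = 2 arrays; adjusted p = 0.00252). Its probes gave 0.38 and 0.40, close to each other.

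Il33, a nuclear alarm cytokine of glia and the ligand of Il1rl1 (ST2), stood at -0.05 and -0.16 at 11 weeks and at 0.45 and 0.16 at 20 weeks (adjusted p = 0.00981). The 20-week arrays lay above the 11-week arrays, but its probes disagreed, one at 0.58 and the other at 0.02. Il36b, an epithelial member of the family, stood at -0.09 and -0.12 at 11 weeks and at 0.18 and 0.52 at 20 weeks (adjusted p = 0.00867), with 0.17 left without the 20-week Cy3 array and 0.53 without the Cy5 array. Il18, an inducer of interferon gamma, stood at 0.16 and 0.00 at 11 weeks and at 0.14 and 0.30 at 20 weeks (adjusted p = 0.0452), with overlapping ages and 0.06 left without the 20-week Cy3 array or 0.39 without the Cy5 array. The receptor antagonist Il1rn was at 0.29 and -0.01 at 20 weeks (adjusted p = 0.127), and Il18bp, which binds Il18, at 0.22 and -0.39. Neither blocker was called, and both followed the dye on all 4 arrays.

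The receptors of this family were called in part. Il1r1, the signalling receptor for Il1a and Il1b, stood at -0.09 and 0.29 at 11 weeks and at 0.34 and 0.54 at 20 weeks, with the 20-week arrays on top (mean 0.44 ± 0.15, SD, n = 2 arrays; 1.36-fold, adjusted p = 0.00166). Il1rl1 stood at 0.21 and 0.06 at 11 weeks and at 0.33 and 0.17 at 20 weeks (adjusted p = 0.0173). The decoy Il1r2 was at -0.45 and 0.47 and so followed the dye, and its 20-week mean was 0.01 ± 0.65 (SD, n = 2 arrays). The shared chain Il1rap was at -0.22 and -0.22 at 11 weeks (adjusted p = 0.0836) and at -0.23 and 0.05 at 20 weeks. Il1rl2, the receptor for Il36b, was at 0.04 ± 0.05 (SD, n = 2 arrays) at 20 weeks.

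Il12b, the p40 chain that interleukins 12 and 23 share, was called at both ages. It stood at 0.26 and 0.60 at 11 weeks and at 0.61 and 0.96 at 20 weeks. All arrays were above 0 and both 20-week arrays lay above the 11-week arrays, the closest values being 0.605 and 0.612. The mean was 0.43 ± 0.24 at 11 weeks (SD, n = 2 arrays; 1.35-fold, adjusted p = 0.00633) and 0.79 ± 0.25 at 20 weeks (SD, n = 2 arrays; 1.73-fold, adjusted p = 6.58e-05). The chains that pair with it were not called: Il12a stood at -0.34 and 0.30 and Il23a at -0.04 and 0.13 at 20 weeks.

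Il2, the T-cell growth factor, had the widest spread of all members. It stood at -0.86 and 0.52 at 11 weeks and at -0.42 and 1.92 at 20 weeks, low wherever the older retina carried Cy5 and high wherever it carried Cy3. Its 20-week change of 0.75 passed the test (adjusted p = 0.00239), yet the mean of 0.75 ± 1.65 (SD, n = 2 arrays) lay within the spread, and its dye effect was -0.93. Without the 20-week Cy3 array the change was 0.28, and without the 20-week Cy5 array it was 1.22. Il3, a growth factor of blood precursors, was above 0 on both 20-week arrays, at 0.07 and 0.68 (adjusted p = 0.00295). At 11 weeks it stood at -0.23 and 0.34, so each Cy3 array was above its Cy5 partner and the ages overlapped. The dye effect of Il3 was -0.29.

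Other interleukins called at 20 weeks had both arrays above 0 with means between 0.21 and 0.34. Il6, a cytokine of acute inflammation that also acts on Müller glia and ganglion cells, stood at 0.51 and 0.15 (adjusted p = 0.00643), and its receptor Il6r at 0.08 and -0.18, with no call. Il16, a ligand of Cd4, stood at 0.39 and 0.22 and was above 0 on all 4 arrays (adjusted p = 0.00737). Il34, a ligand of the microglial receptor Csf1r, stood at 0.43 and 0.02 at 11 weeks and at 0.45 and 0.12 at 20 weeks (adjusted p = 0.0105). Il6, Il16 and Il34 all ran higher in Cy5 than in Cy3 at both ages. The ages overlapped for Il34 and for Il6, which stood at 0.17 and -0.01 at 11 weeks. Those of Il16, at 0.20 and 0.03 at 11 weeks, did not overlap.

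Il7, a growth factor of lymphocyte precursors, stood at 0.18 and 0.50 (adjusted p = 0.00704), and Il9, a T-cell and mast-cell factor, at 0.25 and 0.34 at 20 weeks (adjusted p = 0.0126). Both lay above their 11-week arrays, which were near 0. Without the 20-week Cy3 array the changes were 0.21 for Il7 and 0.17 for Il9. Il5, an eosinophil factor, stood at 0.38 and 0.04 (adjusted p = 0.0428), with 0.10 left without the 20-week Cy3 array and 0.32 without the Cy5 array. At 11 weeks Il5 stood at 0.30 and -0.27, so each Cy5 array was above its Cy3 partner and the ages overlapped. Il17b stood at 0.34 and 0.11 (adjusted p = 0.0328), with 0.14 left without the 20-week Cy5 array. No call was made for Il4, Il10, Il11, Il12a, Il13, Il15, Il23a or Il24. Of these Il10, which dampens macrophages, had 0.03 ± 0.05 and Il24 -0.03 ± 0.00 (SD, n = 2 arrays) at 20 weeks.

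**Figure D4:**
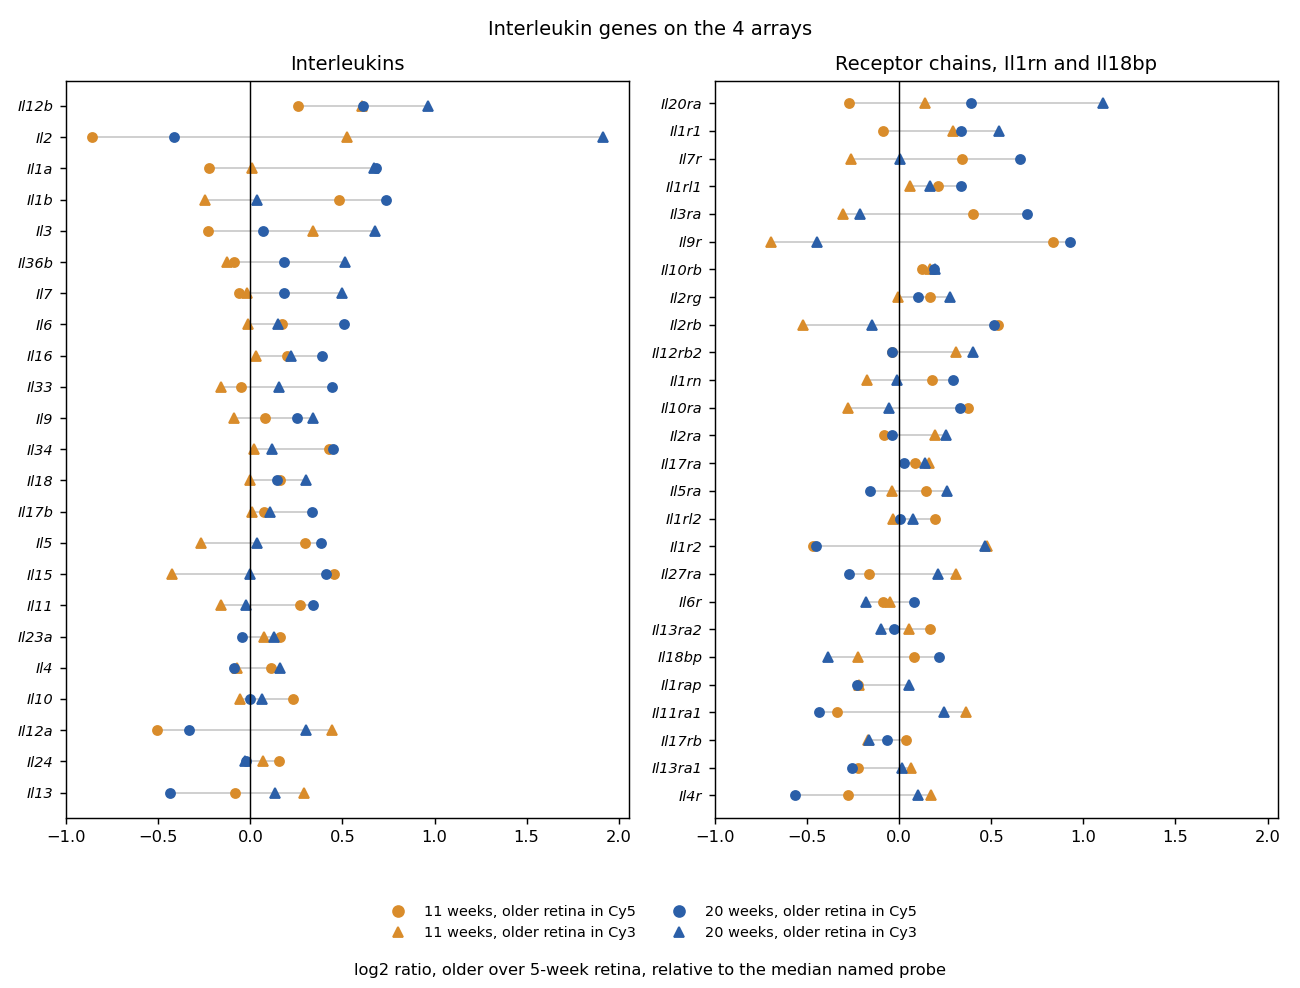
Log2 ratio of the older over the 5-week retina on each of the 4 arrays (colour for age, circles for the older retina in Cy5, triangles for Cy3) for interleukins and for interleukin receptor chains with Il1rn and Il18bp, ordered by the 20-week change. Il12b lies above 0 on all 4 arrays, and Il2 spreads from -0.86 to 1.92.

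Among the remaining receptor chains Il20ra changed most. Il20ra, which with a partner chain binds interleukins of the Il10 family, stood at -0.27 and 0.14 at 11 weeks and at 0.39 and 1.11 at 20 weeks. Both 20-week arrays lay above both 11-week arrays (mean 0.75 ± 0.51, SD, n = 2 arrays; 1.68-fold, adjusted p = 0.000149). Its probes gave 1.07 and 0.42 at 20 weeks, the same direction with different sizes. Il7r, the receptor for Il7, stood at 0.34 and -0.26 at 11 weeks and at 0.66 and 0.00 at 20 weeks (adjusted p = 0.0052), so the 20-week Cy3 array lay at 0. Il10rb stood at 0.19 and 0.20 (adjusted p = 0.0484), but its probes gave 0.42 and -0.04.

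Calls in Il3ra (0.69 and -0.21), Il9r (0.93 and -0.45) and, on the lower side, Il4r (-0.56 and 0.10) were made on 20-week arrays of opposite sign. In all of them the sign followed the dye at 11 weeks too. Without the 20-week Cy5 array the change was 0.14 for Il3ra and -0.12 for Il4r, and without the 20-week Cy3 array it was 0.16 for Il9r. Of the other pairs of probes, Ccl9 gave 0.59 and -0.27 at 20 weeks, each past the threshold when fitted on its own (adjusted p = 0.00146 and 0.0218), and Il17ra 0.26 and -0.09. For 4 of the 6 members with 2 probes, then, the probes did not agree on a direction or one stood near 0. Il2rg, the chain shared by receptors of Il2, Il7 and others, was at 0.19 ± 0.12 (SD, n = 2 arrays; adjusted p = 0.0836). Il13ra2, a decoy, and Il17rb had means of -0.06 ± 0.05 and -0.12 ± 0.07 (SD, n = 2 arrays) without a call. Il6st had no probe with a single symbol.

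The dye effect itself was called in 50 of the 89 members, 56.2%, beside 45.6% of all genes. In 32 of the 88 members measured on all 4 arrays the sign followed the dye throughout, 36.4% beside 33.1% of all genes. This held for 11 of 26 ligands and 11 of 24 receptor chains but 4 of 23 interleukins. Values above 0 on all 4 arrays occurred in 16 of 88 members, 18.2% beside 11.5% of all genes, and below 0 on all 4 in 1 member, Cxcl12, beside 12.1%. The 16 included Ccl2, Ccr2, Ccr7, Il12b, Il16, Il34 and Il1rl1.

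**Figure D5:**
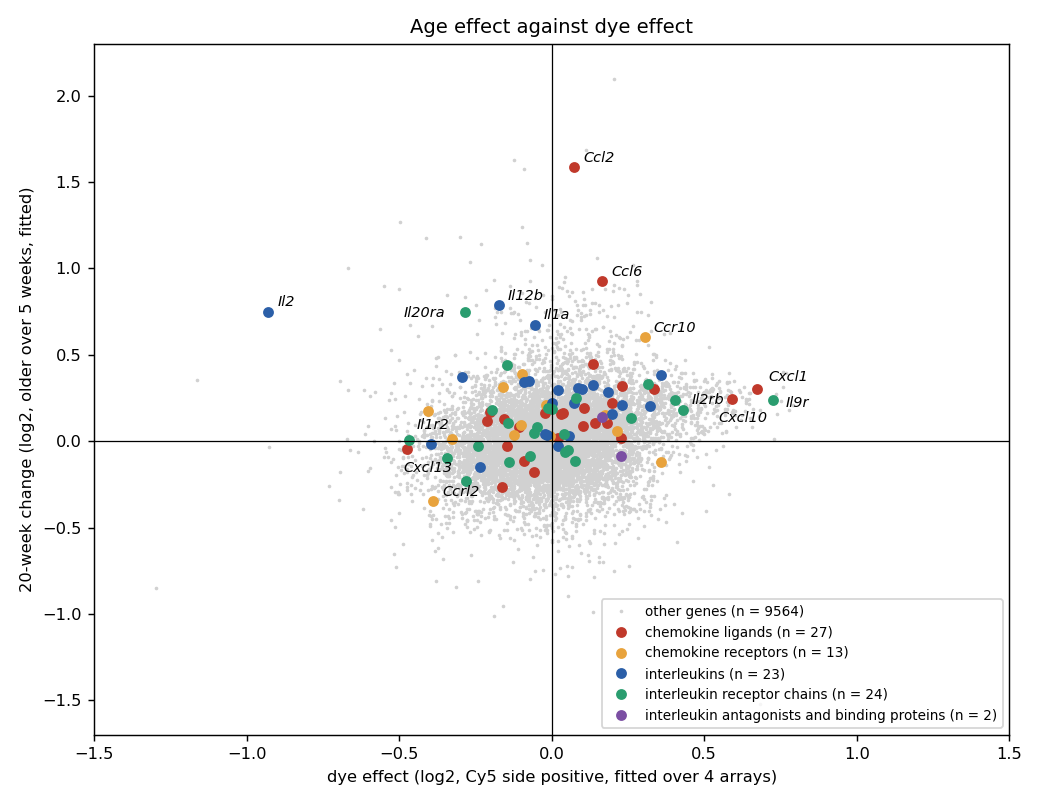
Fitted 20-week change (log2, vertical) against fitted dye effect (log2, horizontal, positive where Cy5 reads higher) for all genes, with members coloured by role. Ccl2 and Ccl6 lie high near the middle of the dye axis, and Cxcl1, Cxcl10 and Il9r lie far to the right with small changes.

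A contrast of both changes compared 20 with 11 weeks through the common 5-week reference. In limma with the dye term 8 members were called higher at 20 weeks, 8.99% beside 3.55% of all genes, and 0 lower, beside 1.18%. At an unadjusted p under 0.05 the numbers were 21 and 4, beside 1180 and 767 of the 9653 genes. The 8 were Ccl6 (1.11 ± 0.12, SE; adjusted p = 0.000827), Il2 (0.92), Il20ra (0.81), Il1a (0.78), Ccl2 (0.76), Cxcl16 (0.51), Il36b (0.46) and Il33 (0.41). For 7 of these the 20-week arrays both lay above both 11-week arrays, and for Il2 they did not. Without the 20-week Cy3 array, or without the 11-week Cy3 array, the difference was 0.27 for Il36b and 0.45 for Il2. Without either Cy5 array it was 1.39 for Il2. Without the dye term 0 members passed and 5 had an unadjusted p under 0.05, beside 270 of all genes, and with ratios as deposited 0 passed. Centred on all probes, Il2, Il33 and Il36b no longer passed, at adjusted p of 0.0678, 0.0851 and 0.0955. Nor did Il33 and Il36b with equal spread (0.0517 and 0.0588), or Il2 and Il36b with robust variance moderation (adjusted p of 0.275 and 0.0508). Arrays of the ages did not overlap for 18 of 88 members in the higher direction, 20.5% beside 13.6% of all genes, and for 3 in the lower direction (Ccl24, Il13ra2 and Il24), 3.41% beside 11.1%. Each age had its own arrays, so an effect of the slides cannot be told apart from age in this contrast.

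Genes around the members gave mixed values. Of 33 other cytokines and their receptors, 10 were called higher and 6 lower at 20 weeks, 30.3% and 18.2% beside 17.8% and 13.9% of all genes, with a median of 0.041. Ltb, lymphotoxin beta, was highest of the called genes that lay above 0 on all 4 arrays, at 0.24, 0.85, 0.57 and 1.10 with the 11-week arrays first and Cy5 before Cy3 (20-week adjusted p = 5.26e-05), followed by the platelet chemokine Ppbp, with a mean of 0.46 ± 0.06 (SD, n = 2 arrays). Tgfb2 fell, at -0.12 and -0.69 (adjusted p = 0.00211), and Mif fell, at -0.16 and -0.65 (adjusted p = 0.0019). Of 28 signalling genes 7 were called higher and 2 lower, 25.0% and 7.14%. Nfkbie, an inhibitor of NF-kB, was highest of those called, at 0.36 and 0.57 (adjusted p = 0.00102). Stat5b was next, at 0.65 and 0.16, and Socs2 was lowest, at -0.81 and 0.11. At 11 weeks Nfkbie was called higher too, at 0.205 and 0.313 (adjusted p = 0.0392). The further inhibitors Nfkbia (-0.13 and -0.58, adjusted p = 0.0134) and Nfkbib (-0.525 and -0.296, adjusted p = 0.0073) were called lower at 11 weeks. Neither was called at 20 weeks, with means of 0.03 and -0.17.

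Marker lists of other cells are set beside the shares of all genes, 17.8% higher and 13.9% lower at 20 weeks. Of 17 microglia and macrophage genes 5 were called higher, 29.4%, and 0 lower at 20 weeks (list median 0.061). The called genes included Tyrobp at 0.61 and 0.25 and Csf1r at 0.19 and 0.22. Trem2 (0.53 and -0.13) and C1qb (0.64 and -0.06) were called on 20-week arrays of opposite sign. Cd74, Adgre1, Ptprc, P2ry12 and Fcgr2b had 20-week means below 0, from -0.18 to -0.03, without a call. Of 20 lymphocyte and granulocyte genes 5 were called higher, 25.0%, and 0 lower (median 0.075). The called genes included Cd2 at 0.40 and 0.44, S100a9 at 0.45 and 0.27, and Cd4 at -0.06 and 0.83. The T-cell genes Cd3d, Cd3e, Cd3g, Cd5, Cd7, Cd8a, Cd8b, Lck and Zap70 were not called, with 20-week means from -0.10 to 0.12. Of 10 rod genes 6 were called lower at 11 weeks, 60.0% beside 6.34% of all genes, and 5 of 10 at 20 weeks, with 0 higher (medians -0.384 and -0.298). Of 11 genes of Müller glia and astrocytes 6 were called lower at 20 weeks, 54.5%, and 1 higher, Aqp4, at 0.22 and 0.21. Of 7 ganglion cell genes 4 were lower, 57.1%, and 0 higher. Of 5 measured genes of pigment epithelium and choroid 2 were higher and 1 lower, and of 14 of blood and vessels 2 and 2, 14.3% each. Their part in the members' changes was not tested, and ratios do not tell which of these markers were near the floor of the arrays.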

How the data were processed

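Pooled whole retinas of 5-, 11- and 20-week albino Lewis rats were hybridised in pairs on 4 two-colour arrays with dyes exchanged, per the labels, which gave the older age of each array as its group. The deposited unit is a log2 ratio between channels, as its values show. How the authors scanned, corrected and normalized the arrays, and which channel they divided by, is not stated in what was used here. Precision is limited by having 2 arrays per age, and arrays have no depth.

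From the deposited table, probes with 1 gene symbol in the platform's gene table were kept, and ceiling values were dropped. Ratios were centred per array on the median of these probes, turned to the older age and averaged over probes per gene. Changes were fitted with limma 3.58.1 (lmFit and eBayes, R 4.3.3), two-sided, with a dye term that left 1 residual degree of freedom beside a prior of 8.83, or without it (2 and 2.63). Calls used a Benjamini-Hochberg adjusted p under 0.05 over all genes. On simulated data the dye model recovered most of the changed genes. Unchanged genes were, however, a larger share of its calls than the threshold aims at, and the model without a dye term recovered none. The simulated dye effects and noise came from the dye model's own fit, and the dye effect of a gene was the same at both ages. That simulation therefore cannot tell which model holds for these arrays. Values are means ± SD of 2 arrays. Start regions came from RefSeq's GRCr8 table.

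The members, the gene lists and the choice of the dye model as the one reported were made with earlier results of these data known. Members described singly were those called with both arrays of that age on one side of 0, then the 5 highest and 5 lowest others with both arrays on one side, and a list of retinal and inflammatory members taken whatever their values, while calls on arrays of opposite sign, Cxcl3 and ligand and receptor partners were added after their values were seen. Alternatives were no dye term, no centring, centring on all probes, equal spread of the arrays, each probe on its own, robust variance moderation and leaving out each array.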

Additional observations from a re-analysis of the deposited data

Results flagged for a closer look

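The change at 20 weeks differed from the change at 11 weeks, by a test of the difference in limma with a dye term, for 8 members. They were 8.99% of the members, beside 3.55% of all genes called higher. No member passed without the dye term or with ratios as deposited. Il2, Il33 and Il36b no longer passed with centring on all probes. The difference of 20 weeks minus 11 weeks (log2) was 0.76 for Ccl2, 1.11 for Ccl6 and 0.51 for Cxcl16 among the chemokine ligands. It was 0.78 for Il1a, 0.92 for Il2, 0.41 for Il33 and 0.46 for Il36b among the interleukins, and 0.81 for the receptor chain Il20ra. Both comparisons share the 5-week retina. The Il2 arrays stood on opposite sides of 0 at both ages, at -0.86 and 0.52 on the 11-week Cy5 and Cy3 arrays and at -0.42 and 1.92 on the 20-week arrays, and the 20-week array lay above the 11-week array in each dye. Its difference was 0.45 without either Cy3 array and 1.39 without either Cy5 array. That of Il36b was 0.27 without either Cy3 array. The probes of Il33 disagreed at 20 weeks, at 0.58 and 0.02.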

How the results depend on the processing

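Replicates were not paired across the ages because the labels number none, so the replicate numbers follow accession order only. The dye swap within each age entered the fit through the dye term. The counts of called members rested on the dye term and on centring. Without the dye term they fell from 4 to 0 at 11 weeks, from 37 to 0 at 20 weeks and from 8 to 0 between 20 and 11 weeks, higher and lower calls alike. As deposited, 0 were called at 11 weeks, 6 at 20 weeks (6 higher, 0 lower) and 0 between the ages, without the shares of all genes beside them. Centring on all probes left 5 between the ages, all 5 higher, and equal spread of the arrays left 1 lower at 20 weeks. Leaving out 1 array without the dye term gave 0 to 0 at 11 weeks, 0 to 1 at 20 weeks (higher 0 to 1, lower 0 to 0) and 0 to 0 between the ages. With the dye term and 1 array left out no residual degree of freedom remains, so that setting gave values and no test. Robust variance moderation kept every count within 1.5 times.

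As deposited, the 20-week medians were 0.435 for all members, 0.406 for ligands, 0.367 for chemokine receptors, 0.561 for interleukins and 0.372 for receptor chains, and the 11-week median of receptor chains was 0.093. That median was 0.046 with centring on all probes, 0.045 with equal spread and 0.046 with each probe on its own. Over left-out arrays, with or without the dye term, the 11-week medians ran 0.019 to 0.15 for ligands, -0.019 to 0.15 for chemokine receptors and 0.021 to 0.080 for receptor chains. The 20-week medians ran 0.10 to 0.21 for all members, 0.084 to 0.20 for ligands, 0.072 to 0.24 for chemokine receptors, 0.15 to 0.32 for interleukins and 0.015 to 0.16 for receptor chains.

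The sign turned as deposited for Ccl24 (0.097), Cxcl12 (0.012), Il13ra2 (0.212), Il17rb (0.162), Il1rap (0.189), Il24 (0.251) and Il6r (0.228) at 20 weeks and for Il7 (0.002) and Il9 (0.036) at 11 weeks. It turned with equal spread for Cx3cl1 (-0.016 and -0.010 at 11 and 20 weeks), Il1rn (-0.015) and Il5 (-0.011) at 11 weeks, and with centring on all probes for Cx3cl1 (-0.003) and Il1rn (-0.004) at 11 weeks. Single probes of Ccl9 (-0.265), Il10rb (-0.036) and Il17ra (-0.095) lay below 0 at 20 weeks. For the following changes the sign turned when 1 array was left out of the model without a dye term. The lowest and highest values are over every left-out array, with and without the dye term. At 11 weeks they were Ccl3 -0.11 to 0.35, Ccl7 -0.24 to 0.43, Ccr10 -0.22 to 0.63, Cx3cl1 -0.20 to 0.20, Cxcl10 -0.45 to 0.76, Cxcl16 -0.24 to 0.12, Il10 -0.092 to 0.26, Il17rb -0.17 to 0.039, Il18 -0.082 to 0.24, Il1a -0.23 to 0.015, Il1b -0.25 to 0.48, Il1r1 -0.086 to 0.29, Il1rn -0.18 to 0.18, Il20ra -0.27 to 0.14, Il2rg -0.092 to 0.25, Il3 -0.23 to 0.34, Il5 -0.27 to 0.30, Il6 -0.012 to 0.17, Il7r -0.26 to 0.34 and Il9 -0.14 to 0.12. At 20 weeks they were Ccl3 -0.077 to 0.31, Ccrl2 -0.91 to 0.21, Cx3cl1 -0.24 to 0.27, Cx3cr1 -0.16 to 0.22, Cxcl10 -0.33 to 0.83, Cxcl11 -0.13 to 0.47, Cxcr4 -0.16 to 0.24, Il10 -0.15 to 0.21, Il1rap -0.23 to 0.053, Il1rn -0.013 to 0.29, Il23a -0.086 to 0.17 and Il6r -0.20 to 0.10. The cause was not tested, and signal over background was not used here.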
